A study of Mus musculus with 3 samples.

Results

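The transforming growth factor beta (TGF-beta) genes described here are 10 rows of a table of 44788 gene symbols, chosen by symbol: the ligand gene Tgfb1, the receptor genes Tgfbr1, Tgfbr2 and Tgfbr3, the signal transducer genes Smad2, Smad3, Smad4 and Smad7, and the corepressor genes Ski and Skil. All 10 were found. They were measured by RNA sequencing in 3 libraries of T lymphocytes from the spleens of female BALB/c mice aged 6 to 8 weeks, isolated with magnetic beads that bind CD90.2, which marks the surface of T cells in the mouse, and held in RPMI medium with 2% fetal bovine serum. Every library came from cells treated for 10 h with LZ-8, a protein from the mushroom Ganoderma lucidum known to act on immune cells. The libraries form 1 group without untreated cells, so every value below is a level under treatment and an effect of LZ-8 could not be measured. Separate animals or cultures are not stated for the replicates, so spreads and p-values concern these libraries and may be technical.

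TGF-beta binds a complex of type I and type II receptor kinases, which phosphorylates the receptor SMADs; these join the common SMAD and enter the nucleus. An inhibitory SMAD and the SKI family of corepressors hold the pathway back, and the genes of several of these brakes are themselves switched on by the signal. In T cells, TGF-beta is known for restraining activation and for its part in the regulatory fate and, together with interleukins, in the Th17 fate. The title of the series names Th17 differentiation.

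Total counts were 13239482, 15007652 and 15683820 in replicates 1, 2 and 3. Levels are given as CPM, the count relative to the library total after TMM normalisation. The share of counts on Rn18s-rs5, an 18S ribosomal RNA copy, was 5.83%, 2.37% and 0.992% in these libraries. All 17 T cell markers examined averaged 10 CPM or more. Summed CPM of the markers of 8 other cell types came to 2.32% to 2.38% of that of the T cell markers. The highest of these markers was Pecam1, listed for stroma and endothelium, at 55.6, 50.3 and 61.8 CPM. Cdh5, Kdr and Vwf of the same list had at most 3 counts in any library. The sums do not measure the share of other cells.

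The genes Tgfb1, Tgfbr1 and Tgfbr2 are introduced with the DNA at the annotated sites where their transcripts begin. Each window covers 250 bases before to 50 bases after an annotated start (RefSeq, GRCm38.p6), written 5′ to 3′ on the strand of the gene. Capitals mark GC boxes (GGGCGG), the SMAD box (CAGAC), a sequence that SMAD proteins can bind, and TATA boxes (TATAAA), searched on both strands. The windows lie at chr7:25686752-25687051 (plus strand) for Tgfb1, chr4:47352972-47353271 (plus strand) for Tgfbr1 and chr9:116175314-116175613 (minus strand) for Tgfbr2.
Tgfb1: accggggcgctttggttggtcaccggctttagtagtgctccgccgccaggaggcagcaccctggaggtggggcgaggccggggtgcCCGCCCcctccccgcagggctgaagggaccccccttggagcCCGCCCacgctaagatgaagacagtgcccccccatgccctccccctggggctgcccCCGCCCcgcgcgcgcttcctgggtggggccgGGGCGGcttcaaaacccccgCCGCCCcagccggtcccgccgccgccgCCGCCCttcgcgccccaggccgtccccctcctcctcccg
Tgfbr1: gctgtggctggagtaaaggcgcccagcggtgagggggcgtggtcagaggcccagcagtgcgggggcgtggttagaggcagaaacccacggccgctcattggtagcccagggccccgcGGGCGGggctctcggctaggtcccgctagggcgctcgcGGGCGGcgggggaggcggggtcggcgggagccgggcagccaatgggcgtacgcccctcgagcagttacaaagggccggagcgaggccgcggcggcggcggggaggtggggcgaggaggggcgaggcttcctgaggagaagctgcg
Tgfbr2: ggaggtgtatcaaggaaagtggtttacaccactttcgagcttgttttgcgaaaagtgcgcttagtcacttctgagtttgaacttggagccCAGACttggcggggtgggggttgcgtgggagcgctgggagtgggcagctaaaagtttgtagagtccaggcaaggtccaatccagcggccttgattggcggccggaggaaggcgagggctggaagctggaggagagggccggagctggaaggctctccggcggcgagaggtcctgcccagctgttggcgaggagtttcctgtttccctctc
The Tgfb1 window held 6 GC boxes, the Tgfbr1 window 2 and the Tgfbr2 window 0, and their GC contents were 77%, 74.7% and 59%. The Tgfbr2 window held 1 SMAD box, the printed windows of Tgfb1 and Tgfbr1 held 0, and no TATA box was found in the 3. RefSeq gives Tgfbr1 a further start, with a window at chr4:47385966-47386265 that held 1 SMAD box and 0 GC boxes at 52% GC. Of 32851 promoter windows, 35.7% held a GC box, 49.6% the SMAD box and 13.6% a TATA box, and their median GC content was 52.7%. The windows of Ski (6 GC boxes) and Smad3 (2 GC boxes) held no SMAD box. A match is a run of letters, and the counts do not measure what binds there. No motif overlapped another in these windows.

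All 10 genes were expressed in every library, and 5 of them at a mean of at least 100 CPM. Over the 15392 genes with enough counts to be tested, 59.8% had a mean of at least 10 CPM, a level that all 10 genes reached, and 16.5% had at least 100 CPM. The median of the 10 genes was 95.1 CPM, against 18.5 CPM over all genes tested. In bulk RNA, fewer cells expressing a gene and less RNA per cell cannot be told apart.

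**Figure D1:**
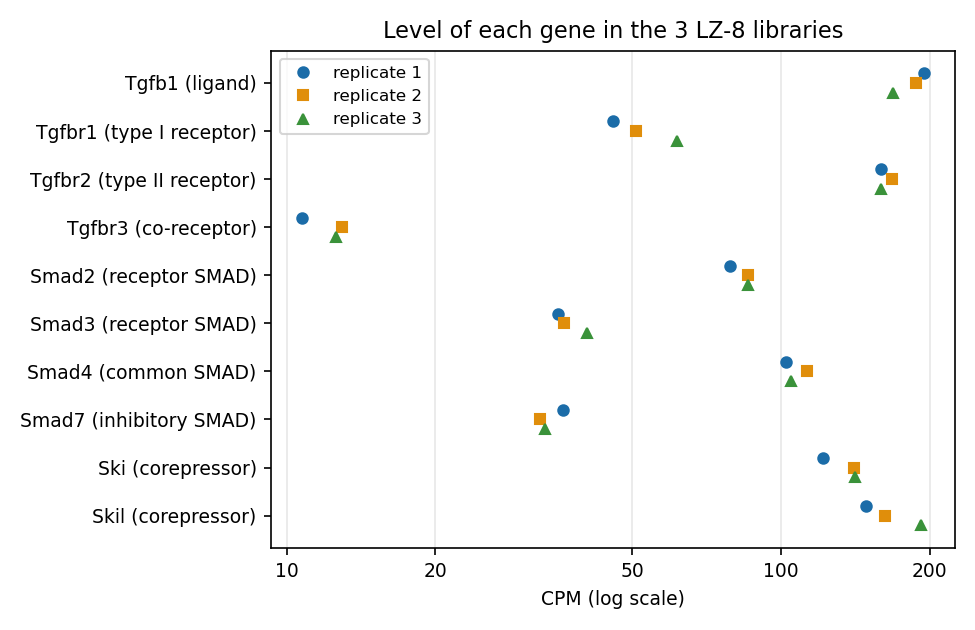
CPM (log axis) of the 10 genes, ordered by role, with 1 symbol per library. Tgfb1 lies between 168 and 195 CPM and Tgfbr3 between 10.8 and 12.9 CPM, and the symbols of a gene lie close together beside the distance between most genes.

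Tgfb1 encodes the main TGF-beta ligand of lymphocytes, secreted in a latent form. It lies on chromosome 7 from 25687002 to 25705077 (GRCm38, GENCODE gene bounds, here and below). Its counts were 2477, 2846 and 2720, or 195, 188 and 168 CPM in replicates 1, 2 and 3. The gene was highest in replicate 1 and lowest in replicate 3, by 1.15-fold. The genes of the other TGF-beta ligands had few counts. Tgfb2 had 17, 23 and 15 counts, and Tgfb3 had 2, 3 and 3 counts. Per kilobase of exon, Tgfb1 exceeded Tgfb2 by 170.5-fold, with a log2 ratio of 7.41 ± 0.28 (SD, n = 3), positive in all 3 libraries. Platelets and macrophages also express Tgfb1. Of the platelet markers, Pf4, Ppbp, Gp9, Gp1bb and Treml1 had no count in any library, and the 7 summed to 7.46 to 8.77 CPM, nearly all from Itga2b. The 11 macrophage and monocyte markers summed to 13.7 to 16.8 CPM, with C1qa, C1qb, C1qc, Csf1r and Fcgr1 at 0 counts. Most of that sum came from Mpeg1, at 7.54, 9.89 and 10.2 CPM, and Cd68, at 5.26, 5.67 and 5.76 CPM, and the part of such cells in the Tgfb1 level was not tested.

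Tgfbr2 encodes the type II receptor kinase, which binds the ligand and phosphorylates the type I receptor. The gene spans 116084293 to 116175360 on chromosome 9 and had 159.6, 168.2 and 159.5 CPM. By these levels it was the gene with the least spread, with a coefficient of variation of 3.08%, where counting alone would give 2.05%. With the length and GC trend described below taken out, it spanned 1.09-fold and Smad2 1.05-fold. Tgfbr1, on chromosome 4 from 47353222 to 47414931, encodes the type I receptor kinase that acts on the SMADs. Its levels were 45.8, 50.9 and 61.6 CPM, the highest in replicate 3 and the largest spread among the 10 genes, at 1.34-fold. Per kilobase of exon, Tgfbr1 was 2.48-fold lower than Tgfbr2, with a log2 ratio of -1.31 ± 0.23 (SD, n = 3). The ratio was negative in each library, at -1.48, -1.40 and -1.05. Tgfbr3 encodes betaglycan, a co-receptor without kinase activity that presents ligand. It lies on chromosome 5 from 107106570 to 107289629 and had 137, 196 and 203 counts, or 10.8, 12.9 and 12.6 CPM. Per kilobase it was 10.8-fold lower than Tgfbr2, with a log2 ratio of -3.43 ± 0.12 (SD, n = 3). With counts this low, counting error alone gives Tgfbr3 a coefficient of variation of 7.48%, close to the 9.61% measured.

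Smad2 and Smad3 encode the receptor SMADs of the TGF-beta and activin receptors. Smad2 had 79.1, 85.9 and 85.7 CPM, and Smad3 had 35.4, 36.5 and 40.4 CPM. Smad2 levels lay within 1.09-fold and Smad3 levels within 1.14-fold of each other, and the genes did not overlap. Smad2 is the longer transcript, and per kilobase of exon the difference narrowed to 1.41-fold (log2 ratio 0.49 ± 0.08, SD, n = 3), with Smad2 higher in each library. Smad4, the common partner of all receptor SMADs, had 103, 113 and 105 CPM, highest in replicate 2. Per kilobase, Smad4 exceeded Smad2 and Smad3 combined by 1.77-fold (log2 ratio 0.82 ± 0.09, SD, n = 3), and without division by length it was lower than their sum, with a log2 ratio of -0.18. Smad2, Smad4 and Smad7 lie on chromosome 18 within 2.67 Mb, and Smad3 lies on chromosome 9 from 63646767 to 63757994.

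The genes of the brakes were expressed alongside those of the rest of the pathway. Protein and signalling were not measured. Smad7 encodes the inhibitory SMAD that occupies the type I receptor and is a known target of the signal. It had 461, 494 and 537 counts, or 36.2, 32.6 and 33.3 CPM, within 1.11-fold of each other. Per kilobase, Smad7 was 2.16-fold lower than Smad2 and Smad3 combined, with a log2 ratio of -1.11 ± 0.15 (SD, n = 3). Ski, on chromosome 4 from 155154075 to 155222592, had 122, 141 and 141 CPM, lowest in replicate 1. Skil, on chromosome 3 from 31095058 to 31122577, encodes SnoN, the relative of SKI that is both a repressor and a target of SMADs. It had 149, 162 and 192 CPM, highest in replicate 3. Per kilobase, Ski and Skil together exceeded Smad4 by 1.44-fold (log2 ratio 0.53 ± 0.13, SD, n = 3), but with the mean transcript length the log2 ratio was -0.25. Which of Ski and Skil was higher depended on the length used: the log2 ratio of Skil to Ski was -0.49 ± 0.12 per kilobase of all annotated exons, 0.032 per kilobase of the longest transcript and 0.31 without division by length.

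**Figure D2:**
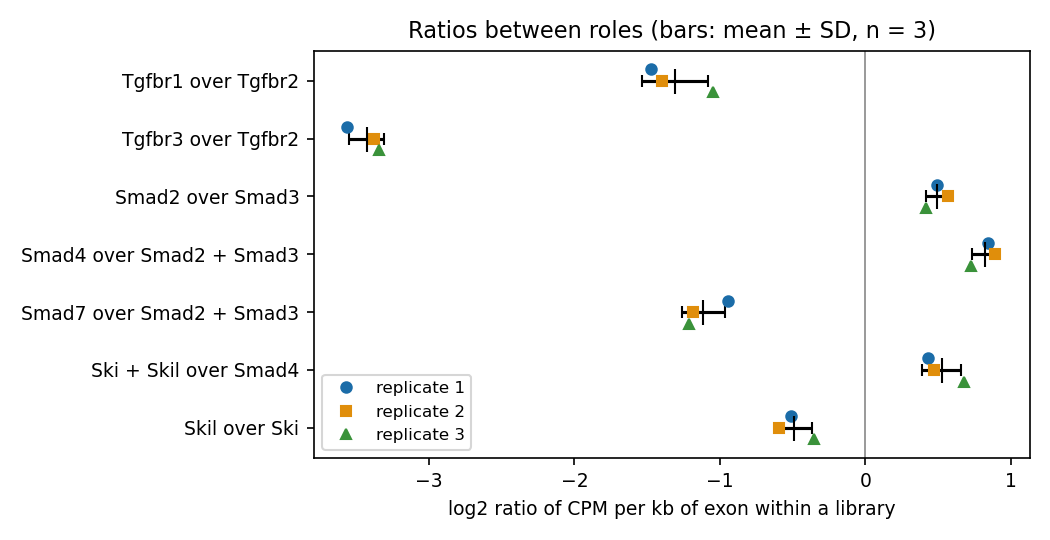
Log2 ratios of CPM per kilobase of exon within each library for 7 ratios between genes of linked roles, with the mean and SD over 3 libraries. Tgfbr3 over Tgfbr2 is the furthest from 0, at -3.43, and in no ratio do the libraries lie on both sides of 0.

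In the order of levels per kilobase of exon, Tgfb1 came at the top with 36.4 ± 2.68, followed by Smad4 with 28.7 ± 1.46, Ski with 24.2 ± 2.00, Tgfbr2 with 19.8 ± 0.612 and Skil with 17.3 ± 2.28 (CPM per kb, mean ± SD, n = 3). The lower part of the order was Smad2 with 9.51 ± 0.438, Tgfbr1 with 8.07 ± 1.23, Smad7 with 7.52 ± 0.427, Smad3 with 6.76 ± 0.478 and Tgfbr3 with 1.85 ± 0.177 CPM per kb. Among 10522 coding genes of at least 1 CPM, Tgfb1 stood at the 88.4 percentile, Smad3 at 46.4 and Tgfbr3 at 19.6. Neighbours were taken to differ beyond their spread where the log2 ratio had 1 sign in all 3 libraries and a mean above its SD, which held for 6 of 9 pairs. It did not hold for Tgfbr2 and Skil (0.20 ± 0.20), for Tgfbr1 and Smad7 (0.09 ± 0.28) or for Smad7 and Smad3 (0.156 ± 0.158). With 3 libraries a two-sided exact sign-flip test cannot give a p below 0.25, so none of these ratios could pass that test. The step between Skil and Smad2 was a 1.81-fold difference and that between Smad3 and Tgfbr3 a 3.66-fold difference. The first step depended on the length used: its log2 ratio was 0.86 with the exons and 0.13 with the mean transcript length. With that length, Smad2 stood above Tgfbr2 and Ski. Under the alternative settings, 4 to 8 pairs met the rule for a difference beyond the spread. The height of Tgfb1 is sensitive to its annotation, whose exons cover 5042 bases in all but 2573 in the longest transcript. The log2 ratio of Tgfb1 to Smad4 was 0.34 ± 0.12 with the exons (SD, n = 3) and 1.18 with the longest transcripts. Tgfb1 also headed the order with the longest transcript, with the mean transcript length and without division by length.

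**Figure D3:**
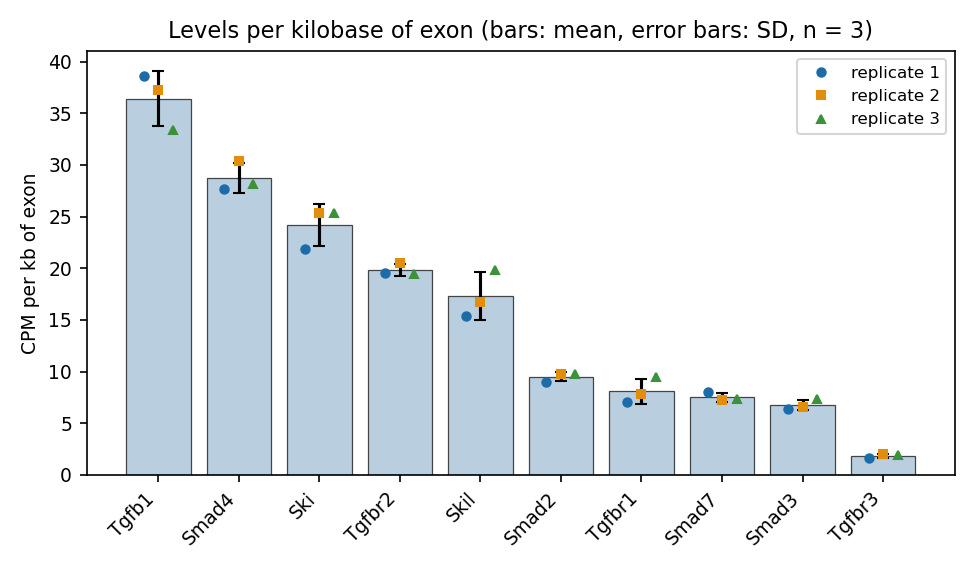
CPM per kilobase of exon of the 10 genes in descending order, as the mean (bars), the SD (error bars) and each library (symbols). Tgfb1, at 36.4, is the highest, Skil, at 17.3, is followed by a step down to Smad2, at 9.51, and Tgfbr3, at 1.85, is the lowest.

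The 10 genes were then tested for differences between the libraries beyond counting noise. A chi-square test of the 3 counts with Benjamini-Hochberg adjustment over 15392 genes called 5 of the 10, against 42.8% of all genes tested and 58.5% of those with a mean of at least 10 CPM. The share is near that of the background. Of the 10 genes, 3 were called and highest in replicate 3, 1 in replicate 1 and 1 in replicate 2, against 19.1%, 17.9% and 5.76% of all genes tested. Among all genes called, 44.7% were highest in replicate 3, 41.9% in replicate 1 and 13.4% in replicate 2. Ski is counted for replicate 3, although its levels in replicates 2 and 3 were nearly equal. None of the 10 differed by 1.5-fold or more, against 13.8% of all genes tested that were called and did. The median ratio of the highest to the lowest library was 1.15 for the 10 genes, 1.26 for all genes tested and 1.18 for those of at least 10 CPM.

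Skil (adjusted p = 5.29e-18 in the chi-square test) and Tgfbr1 (adjusted p = 1.18e-07) were highest in replicate 3. Ski (adjusted p = 2.12e-05 in the chi-square test) was lowest in replicate 1, and Tgfb1 (adjusted p = 2.07e-06) was lowest in replicate 3. Smad4 passed narrowly, with an adjusted p of 0.0439 in the chi-square test, and did not pass with DESeq2 size factors (adjusted p = 0.0781; 0.00135 to 0.667 over all alternatives). Tgfbr2, Tgfbr3, Smad2, Smad3 and Smad7 had adjusted p-values of 0.119 to 0.334 in the chi-square test and were not called. Single libraries decided some calls. Without replicate 1 the test called 3 of the 10 genes and 3836 of all genes, and without replicate 3 it called 3 and 3555, where 6589 of all genes were called with the 3 libraries. These counts are 24.4% of the genes tested without replicate 1 and 22.8% of those tested without replicate 3. Without replicate 3, Tgfb1 and Tgfbr1 had adjusted chi-square p-values of 0.38 and 0.159. Without replicate 1, Ski had an adjusted chi-square p of 0.995 and Smad4 of 0.0935, and without replicate 2 Smad4 had 0.667. Skil was called whichever library was left out.

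Tgfbr1 and Skil have a similar base composition. Their longest coding transcripts had GC contents of 41.0% and 41.0%, the lowest of the 10, with 4154 and 3964 bases after the coding part at 38.9% and 38.3% GC. Ski and Smad7 transcripts had 55.6% and 56.9%, and that of Tgfb1 62.5%, or 52.5% in its longest transcript of any kind, which the fit below used. Across all genes each library followed a trend with exon length and GC content. That trend, fitted per library, gave log2 ratios of replicate 3 to replicate 1 of 0.26 for Tgfbr1 and 0.26 for Skil, where 0.43 and 0.37 were measured. For Tgfb1 the trend gave 0.026, where -0.21 was measured, and for Ski 0.011, where 0.21 was measured. With the trend taken out, the ratio of the highest to the lowest library became 1.14 for Tgfbr1 (adjusted p = 0.0322 in the chi-square test) and 1.12 for Skil (adjusted p = 6.68e-04). Those of Tgfb1 and Ski became 1.18 and 1.17, with adjusted chi-square p-values of 2.79e-08 and 1.36e-05. The same 5 genes were called, with Tgfbr2 added (adjusted p = 0.0247 in the chi-square test), against 36.3% of all genes.

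**Figure D4:**
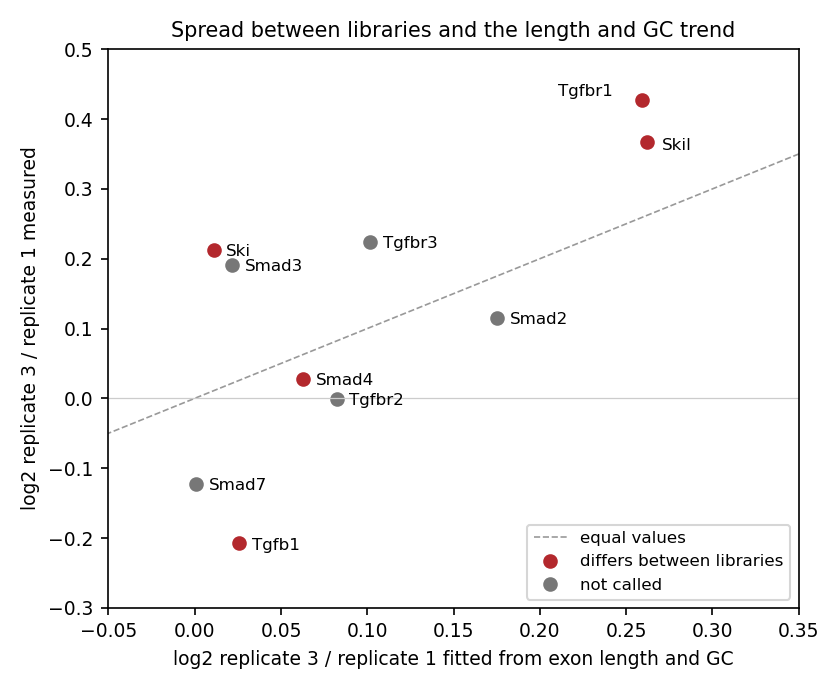
Measured log2 ratio of replicate 3 to replicate 1 (vertical) against the ratio fitted from exon length and GC content (horizontal) for the 10 genes, coloured by the chi-square call, with a dashed line at equal values. Tgfbr1 and Skil lie at the right, at a fitted 0.26, while Tgfb1 and Ski lie near a fitted 0 with measured values of -0.21 and 0.21.

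Further genes of the pathway were described from 6 lists. Counts of their genes called stand against 42.8% of all genes tested, and 58.5% of those of at least 10 CPM, that were called. Of 26 other ligand, latency and activation genes, 5 averaged 10 CPM or more and 17 stayed below 1 CPM throughout, with a list median of 0.169 CPM. The 5 were Itgb1, an integrin beta chain, at 129 ± 10.4 CPM, Furin, a protease that cleaves the TGF-beta precursor, at 126 ± 4.96 CPM, Itgav, the integrin chain that binds latent TGF-beta, at 121 ± 10.1 CPM, Lrrc32 and Nrros (SD, n = 3). Lrrc32 encodes GARP, which tethers latent TGF-beta to regulatory T cells, and had 68.4, 68.1 and 68.6 CPM, equal within 1.01-fold. Nrros, which holds latent TGF-beta on myeloid cells, had 59.2, 51.8 and 48.9 CPM and differed between libraries (adjusted p = 0.00221 in the chi-square test). The macrophage markers given above were at 13.7 to 16.8 CPM in sum, and their part in this level was not tested. Gdf11, a ligand related to myostatin, had 5.97, 3.83 and 3.47 CPM (adjusted p = 0.00911 in the chi-square test). Itgb8, the partner of Itgav in activating TGF-beta, had 6.21, 8.51 and 9.66 CPM. Inhbb, Bmp2, Bmp4 and Bmp6 had no count, which allows up to 0.186 to 0.236 CPM (3 counts per library, counting error only). Tgfb3, Inhba, Mstn, Gdf15, Ltbp1, Itgb6, Thbs1 and Pcsk5 had at most 3 counts in any library. Of the 10 genes of this list that were tested, 6 were called, beside 42.8% of all genes tested. Among the 6, 3 were highest in replicate 3, 2 in replicate 1 and 1 in replicate 2. The shares over all genes called were 44.7%, 41.9% and 13.4%. Without replicate 1, 1 was called, where all genes fell to 24.4%. With the length and GC trend taken out, 4 were called, beside 36.3% of all genes tested. Itgb1, Itgav and Itgb8 were then no longer among them, and Furin was added (adjusted p = 0.0275 in the chi-square test).

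Of 23 further SMADs, adaptors and co-regulators, 17 reached a mean of 10 CPM, and the list median was 53.0 CPM. The most abundant were Ncor1, a corepressor scaffold, at 428 ± 23.0 CPM, and the acetyltransferase coactivators Ep300 at 204 ± 13.8 CPM and Crebbp at 179 ± 12.03 CPM (SD, n = 3). The chi-square test called 11 of the 19 tested, beside 42.8% of all genes tested and 58.5% of those of at least 10 CPM. Of the 11, 8 were highest in replicate 3, as were 44.7% of all genes called. The test called 6 without replicate 1 and 7 without replicate 3, where 24.4% and 22.8% of all genes were called. With the trend taken out it called 8, beside 36.3% of all genes tested. Zeb2, a repressor that binds SMADs, had the largest ratio among the called genes of at least 10 CPM, with 10.3, 14.0 and 14.4 CPM (adjusted p = 0.0143 in the chi-square test, and 0.412 with the trend taken out). Dab2 and Foxh1 had at most 3 counts in any library.

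Genes that control the turnover of receptors and SMADs were expressed almost throughout, with 15 of 16 at a mean of at least 10 CPM and a median of 86.4 CPM. Usp9x, a deubiquitinase reported to act on SMAD4, had 195, 247 and 275 CPM, and Usp4, a deubiquitinase of the type I receptor, had 181, 183 and 215 CPM. Fkbp1a, which binds the type I receptor and keeps it inactive, had 236, 210.0 and 165 CPM, the opposite order of libraries to Usp9x, a 1.43-fold range (adjusted p = 1.44e-39 in the chi-square test). With the length and GC trend taken out, the range of Usp9x fell from 1.41-fold to 1.15-fold, while that of Fkbp1a was 1.42-fold. The test called 10 of the 16, beside 58.5% of all genes of at least 10 CPM. Of these calls, 8 were highest in replicate 3, as were 44.7% of all genes called. Without replicate 3 the test called 6, and the share over all genes was 22.8%. Among the kinases and adaptors that TGF-beta receptors use beside the SMADs, 9 of 10 reached 10 CPM, with a median of 122 CPM. They were led by Rhoa, a small GTPase, at 229, 277 and 357 CPM, Map2k3, a kinase upstream of p38, at 249 ± 9.74 CPM, and Tab2, an adaptor of the kinase TAK1, at 169 ± 14.5 CPM (SD, n = 3). The test called 8 of these 10, beside the same 58.5%, and 5 without replicate 3, beside 22.8% of all genes. Among the 8 calls, 7 were highest in replicate 3, beside the same 44.7% of all genes called. With the trend taken out the test called 8 of the turnover genes and 7 of the kinase genes, beside 36.3% of all genes tested.

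Of 23 genes known as targets of TGF-beta in T cells or elsewhere, 14 averaged 10 CPM or more, and the median was 34.0 CPM. Smad7, Ski and Skil are among them. The most abundant were the transcription factor gene Bhlhe40 at 250.2 ± 8.32 CPM, the regulatory T cell factor gene Foxp3 at 217 ± 1.45 CPM, and Rgs16, an inhibitor of G protein signalling, at 195 ± 13.7 CPM (SD, n = 3). Foxp3 levels lay within 1.01-fold of each other. Pmepa1, which sequesters receptor SMADs, had 115, 105 and 96.6 CPM, and Itgae, the integrin chain CD103 that TGF-beta induces in T cells, had 12.02, 10.6 and 12.4 CPM. Id3, an inhibitor of helix-loop-helix factors, had 43.4, 34.4 and 24.2 CPM, a 1.79-fold range and the largest of the called genes in the list. Id2, its relative, had 27.7, 38.2 and 41.9 CPM, so the genes took opposite orders over the libraries. Some targets known from fibroblasts and epithelium were near the floor, with at most 3 counts in any library for Tgfbi and Ccn2 (listed as Ctgf). The test called 12 of the 20 tested, beside 42.8% of all genes tested and 58.5% of those of at least 10 CPM. Among the 12, 6 were highest in replicate 1 and 5 in replicate 3, beside 41.9% and 44.7% of all genes called. Without replicate 1 the test called 5, and the share over all genes was 24.4%. It called 9 without replicate 3, beside 22.8% of all genes, and 12 with the length and GC trend taken out, beside 36.3%. Most of the target genes respond to other signals too, and their levels without treatment were not measured.

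**Figure D5:**
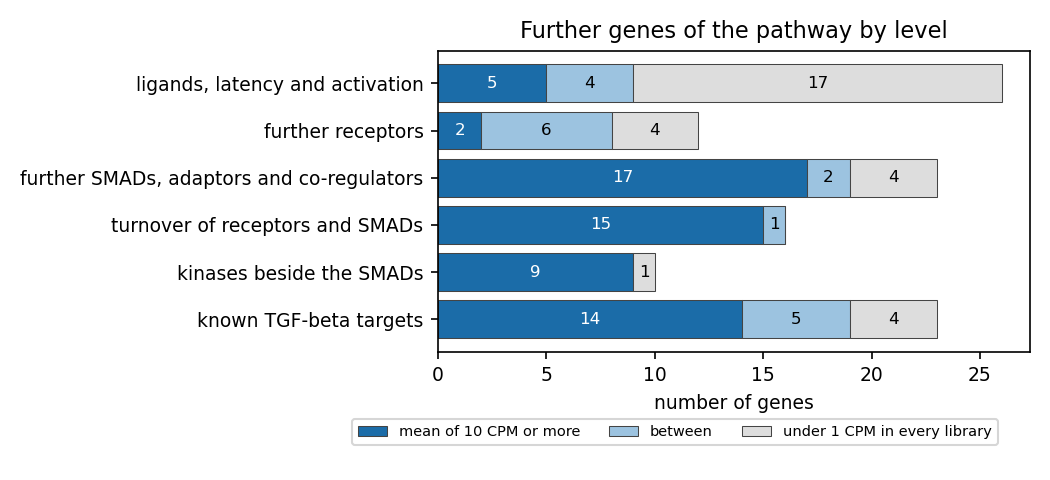
Number of further pathway genes per list, split by level into those averaging 10 CPM or more, those below 1 CPM throughout, and those between. The ligand list is mostly under 1 CPM (17 of 26), while 15 of 16 turnover genes and 9 of 10 kinase genes reach 10 CPM.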

How the data were processed

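RNA was profiled in 3 libraries of LZ-8 treated mouse T cells, built by an Ion Proton kit protocol, per the labels' protocols. The authors deposited raw counts per gene symbol, on mm10, per the submitters' processing notes. The aligner, counter, annotation and strand setting were not given in the sources used here.

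Counts were scaled by TMM (edgeR 4.0.16, R 4.3.3; factors 0.962, 1.01 and 1.03) to CPM. Exon lengths (union of all exons), GC content (longest transcript) and positions came from GENCODE M21 (GRCm38), which matched 92.7% of the genes tested. Only Tgfbr3 shared exonic sequence with another annotated gene (297 bases, same strand). In blastn 2.17.0 searches, no copy of at least 95% identity exceeded 306 bases. The match of 306 bases was between Tgfbr3 and Gm43422. All other matches were of Tgfbr2 with many genes, the longest at 171 bases (Ilf2), and their part in its counts was not tested.

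The chi-square test used raw counts against effective library sizes, wherever each library's expected count was 5 or higher, with Benjamini-Hochberg adjusted p under 0.05 as the call. The length and GC trend was fitted per library by robust splines with 6 degrees of freedom. Both steps were tested on simulated data. Alternatives were DESeq2 1.42.0 size factors, raw totals, other filters, thresholds and lengths, the trend correction, and leaving out each library.

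The members and gene lists were chosen with earlier results of these data known. Genes named from lists were the 3 most abundant, the most variable called gene of at least 10 CPM and those with at most 3 counts. Others (Lrrc32, Itgb8, Gdf11, Tgfb2, Pmepa1, Itgae, Id2, Bmpr1a, Smad1, Smad5) were chosen after their values were seen. Promoter windows for 5 members came from RefSeq, and none was at hand for Tgfbr3, Smad2, Smad4, Smad7 and Skil. Intervals and floors cover counting error only.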

Additional observations from a re-analysis of the deposited data

How the results depend on the processing

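The count of the 10 genes called, 5 in the main analysis, was 8 with raw totals and 0 with a 1.5-fold minimum added. It was 4 to 6 under the other settings that kept all libraries, and 3 to 4 when 1 library was left out. Of all genes tested, 42.8% were called in the main analysis, 47.1% with raw totals and 13.8% with the 1.5-fold minimum. The share was 27.6% to 50.4% under the other settings with all libraries, and 22.8% to 41.7% with 1 library left out. Signs turned for Tgfbr2 with raw totals (log2 of replicate 3 to replicate 1 of 0.10, adjusted p = 0.00689 in the chi-square test) and for Smad4 with the trend correction (-0.035). Smad2, not called, was -0.060 with the trend correction and 0.11 in the main analysis. With 1 library left out the ratio compares other libraries: Smad4 was then -0.11 to 0.14, and Tgfbr2, Tgfbr3, Smad2 and Smad7, none of them called, also turned sign in at least 1 case, with -0.040 for Tgfbr3 and 0.030 for Smad7 without replicate 1. The cause was not tested.

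The length used moved the ratios. Per kilobase of mean transcript length, the log2 ratios were -0.43 for Tgfbr1 to Tgfbr2, -2.68 for Tgfbr3 to Tgfbr2, 0.33 for Smad4 to Smad2 and Smad3, -1.60 for Smad7 to the same sum, -0.25 for Ski and Skil to Smad4, 0.63 for Skil to Ski and -0.10 for Ski to Tgfbr2. Without division by length they were -1.63, -3.75, -0.18, -1.83, 1.499, 0.31 and -0.28, with 1.16 for Smad2 to Smad3 and -0.33 for Smad4 to Ski. With the longest transcript, Skil to Ski was 0.032. The directions of Tgfbr1 and Tgfbr3 to Tgfbr2, Smad2 to Smad3 and Smad7 to the receptor SMADs held under every length and with each library left out. The trend correction could not test them. It was fitted to each gene's deviations from its own mean over the libraries, so mean ratios between genes hardly move. No paired analysis was possible because there is only 1 group. Depth limits Tgfbr3, with 137 to 203 counts, and the genes near the floor.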

Other observations

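The arm of the family that answers to activins and bone morphogenetic proteins was measured in the same lists. Acvr1b, the activin type I receptor that also acts on Smad2 and Smad3, had 45.5, 45.1 and 48.7 CPM, or 10.5 ± 0.445 CPM per kilobase of exon, beside 8.07 ± 1.23 CPM per kilobase for Tgfbr1 (SD, n = 3). Bmpr2, the type II receptor for bone morphogenetic proteins, had 19.6, 19.5 and 24.6 CPM, the most variable called receptor gene (adjusted p = 0.00756 in the chi-square test; adjusted p = 0.198 with the trend correction). Its type I partners were low, with Bmpr1a at 1.41 to 2.91 CPM and Bmpr1b at 0 counts, and Eng, a co-receptor, was at 7.01 ± 0.519 CPM (SD, n = 3). Acvrl1 had at most 3 counts in any library. Of the 12 further receptor genes, 2 averaged 10 CPM or more, 4 stayed below 1 CPM throughout, and 1 of the 9 tested, Bmpr2, was called, against 42.8% of all genes tested. Bmpr2 was not called without replicate 3, where the share over all genes was 22.8%. The list median was 1.31 CPM.

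Among the further SMADs, Smad5 had 62.2, 66.1 and 72.7 CPM and Smad1 26.0, 25.5 and 23.1 CPM. Per kilobase of exon, Smad5 was at 9.03 ± 0.712 CPM and Smad1 at 3.97 ± 0.246 CPM, beside 9.51 ± 0.438 CPM for Smad2 (SD, n = 3). Smad9 and Smad6, the inhibitory SMAD related to Smad7, had no count in any library, which allows up to 0.186 to 0.236 CPM.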
